A study of Mus musculus with 6 samples.

Results

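The cell cycle and proliferation genes described here are 41 named genes of DNA replication, mitosis, the cyclins with their kinases, and the inhibitor, RB and E2F branch. They were chosen by name, from a list of genes known to be active in dividing cells, and the rule uses no measured value. All 41 had a probe on the array and 39 were tested, of 25005 genes and transcripts tested in all. The quadriceps of 3 exercised and 3 sedentary males of the AR97Q line was profiled when the mice were 9 weeks old, with 1 array per mouse. AR97Q mice model spinal and bulbar muscular atrophy and carry a human androgen receptor transgene with an expanded polyglutamine tract, on a C57BL/6J background, and every mouse of both groups carried it. The exercise group ran on a forced wheel at 5 m/min for 60 min per day on 5 days per week, from 5 weeks of age and for 4 weeks, and tissue was taken the day after the last run. Wild-type mice are not among the arrays analysed here.

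A cell that divides passes from a growth phase into DNA synthesis and then mitosis. D-type cyclins with Cdk4 and Cdk6, and then cyclin E with Cdk2, phosphorylate the retinoblastoma protein and release the E2F factors, which raise transcription of replication genes, while mitotic genes are raised later by other factors. Mature muscle fibres have left the cycle for good. Transcripts made only in dividing cells would then come from satellite cells, the muscle stem cells, and from interstitial, vascular and immune cells. Several members, among them Ccnd3 and Rb1, also have roles outside division, and their transcripts may come from fibres as well. The source of each transcript was not measured. In whole quadriceps, fewer cells of a type and less RNA per cell cannot be told apart.

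The promoters of 5 members are shown because they include 4 of the 7 genes that changed, and Mki67, the most used marker of proliferation, beside them. RefSeq promoter windows of the GRCm38.p6 assembly, from 250 bases before to 50 after the start site, were found for 32 of the 41 members, and the stretch of 250 bases before the start site is printed 5′ to 3′ on the gene's strand. Capitals mark, on either strand, the CCAAT box, the E2F forms TTTCCCGC, TTTGGCGC, TTTGCCGC and TTTCGCGC, and the cell cycle homology region forms TTTGAA and TTCGAA. Mcm5 lies at chr8:75109259-75109508 (plus strand), Mcm6 at chr1:128359706-128359955 (minus strand), Cenpe at chr3:135212313-135212562 (plus strand), Aurka at chr2:172370571-172370820 (minus strand) and Mki67 at chr7:135716380-135716629 (minus strand).
Mcm5: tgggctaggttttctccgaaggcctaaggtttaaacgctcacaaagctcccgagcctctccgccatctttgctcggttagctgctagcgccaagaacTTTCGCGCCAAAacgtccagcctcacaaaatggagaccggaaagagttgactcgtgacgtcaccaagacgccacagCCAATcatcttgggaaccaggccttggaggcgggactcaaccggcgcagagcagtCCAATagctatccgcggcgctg
Mcm6: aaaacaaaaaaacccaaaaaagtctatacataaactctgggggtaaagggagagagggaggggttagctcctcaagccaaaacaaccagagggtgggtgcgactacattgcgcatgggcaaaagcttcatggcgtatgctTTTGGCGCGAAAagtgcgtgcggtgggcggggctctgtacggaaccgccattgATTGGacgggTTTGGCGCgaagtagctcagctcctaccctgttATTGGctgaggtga
Cenpe: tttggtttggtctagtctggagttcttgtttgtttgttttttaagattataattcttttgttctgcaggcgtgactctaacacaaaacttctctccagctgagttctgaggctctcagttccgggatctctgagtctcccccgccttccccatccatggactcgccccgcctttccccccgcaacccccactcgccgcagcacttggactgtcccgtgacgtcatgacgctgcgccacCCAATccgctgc
Aurka: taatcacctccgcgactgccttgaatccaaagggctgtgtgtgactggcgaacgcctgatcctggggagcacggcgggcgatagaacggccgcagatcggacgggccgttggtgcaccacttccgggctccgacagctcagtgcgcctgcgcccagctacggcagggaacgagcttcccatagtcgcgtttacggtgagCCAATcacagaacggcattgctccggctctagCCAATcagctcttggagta
Mki67: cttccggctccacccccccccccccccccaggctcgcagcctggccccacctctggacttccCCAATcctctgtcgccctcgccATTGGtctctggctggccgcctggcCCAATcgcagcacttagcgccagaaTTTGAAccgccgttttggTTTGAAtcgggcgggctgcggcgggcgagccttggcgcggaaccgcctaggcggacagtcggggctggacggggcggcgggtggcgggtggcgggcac

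In these windows Mcm5 had the E2F form TTTCGCGC starting at position -153 from the start site, overlapping TTTGGCGC on the other strand. Mcm6 had the same overlapping pair the other way round, with TTTGGCGC starting at -110, and a further TTTGGCGC at -47. The overlap arises because these 8-letter forms share the end GCGC, which reads the same on both strands, so each pair is 1 stretch of sequence matched on both strands. Mki67 had TTTGAA at -116 and -98, and Aurka had 2 CCAAT boxes before its start site and TTTGAA at 33, after it. Cenpe had none of the E2F or cell cycle homology forms, only a CCAAT box at -12. Over the windows of all genes, 2.26% of 32851 held any of the E2F forms, against 17.1% of the 35 windows of members (6 genes: Mcm3, Mcm5, Mcm6, Mcm7, Cdk1 and Cdk2). The corresponding shares were 19.2% and 40.0% for either homology region form and 37.4% and 77.1% for CCAAT. The form TTCGAA is its own reverse complement, so a site is matched on both strands. A match is a description of the sequence and not evidence of binding.

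Signals are given as the log2 of the processed signal relative to the 75th percentile of the same array, and differences as exercise minus sedentary on that scale (log2 fold change), with the standard error (SE) of limma and its Benjamini-Hochberg adjusted p over all 25005 tests. Of the 39 members tested, 1 rose and 6 fell with an adjusted p below 0.05. Of all genes in the fit, 11.5% rose and 6.12% fell, 17.6% in either direction, so the member rising is 2.56% of the members and those falling 15.4%. The member that rose was Aurka, the mitotic kinase Aurora A. Those that fell were Rb1, the retinoblastoma protein, Cenpe, a kinetochore motor, the helicase subunits Mcm5 and Mcm6, Kif20a, a kinesin of cell division, and Ccnd3, cyclin D3. The median log2 fold change of the 39 members was -0.18, against 0.03 for all genes tested, with 29 members below 0 and 10 above. Of all genes, 47.1% lay below 0 and 52.9% above. All 3 exercise values lay below all 3 sedentary values for 14 members and above them for 3, where 18.2% and 25.0% of all genes did so, 43.2% in either direction. Leaving out exercise 1, 2 or 3, or sedentary 2 or 3, left 0 members called by limma, when at most 1 of all 25005 genes passed. At an unadjusted p under 0.05 by limma, these fits held 1 of the 39 members higher and 7 to 10 lower. Of all 25005 genes, 6686 to 8146 were under that limit in either direction. Leaving out sedentary 1 gave 1 higher and 5 lower, of which Kif11 (-0.93) and Pcna (-0.37) were not called with all 6 arrays.

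**Figure D1:**
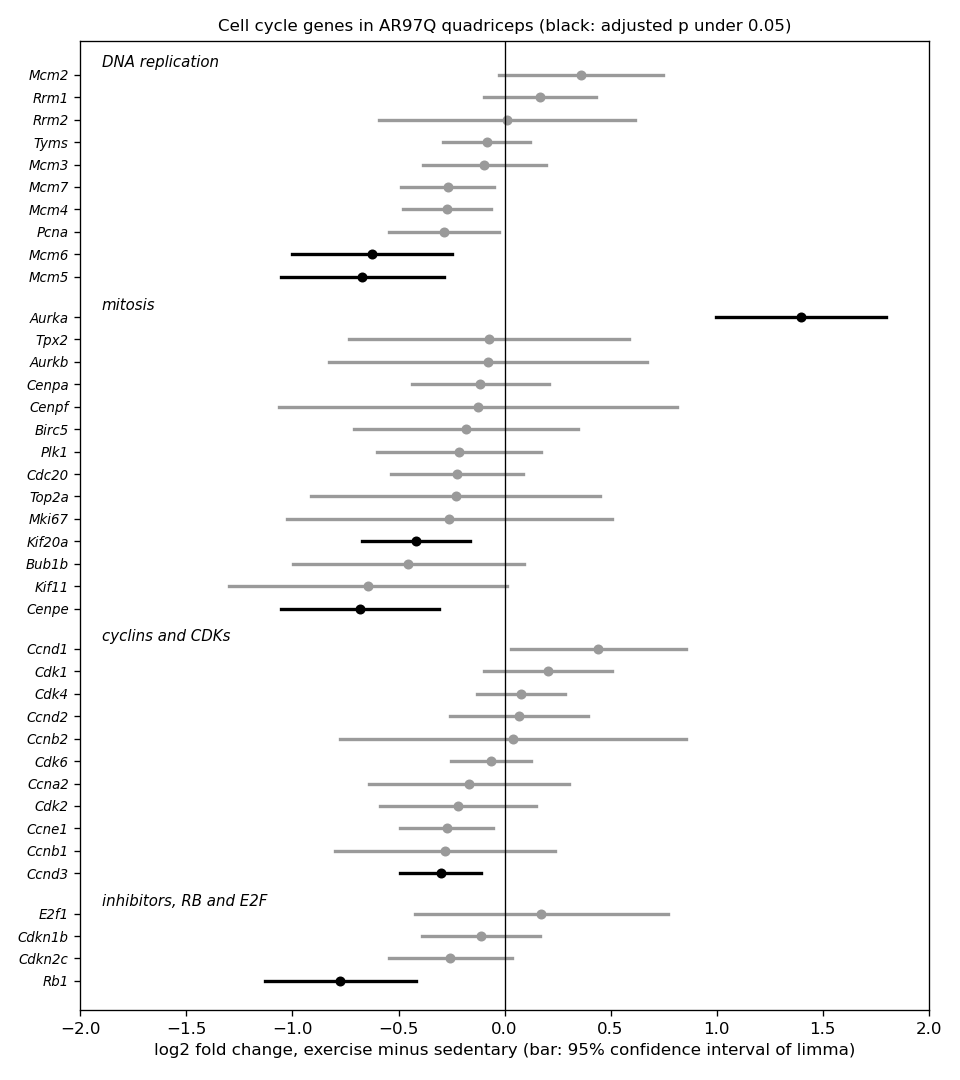
Log2 fold change, exercise minus sedentary, of the 39 members tested, grouped by role, with bars for the 95% confidence interval and black for adjusted p under 0.05. Aurka lies alone on the right at 1.40, while 29 of the 39 members lie left of 0.

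**Figure D2:**
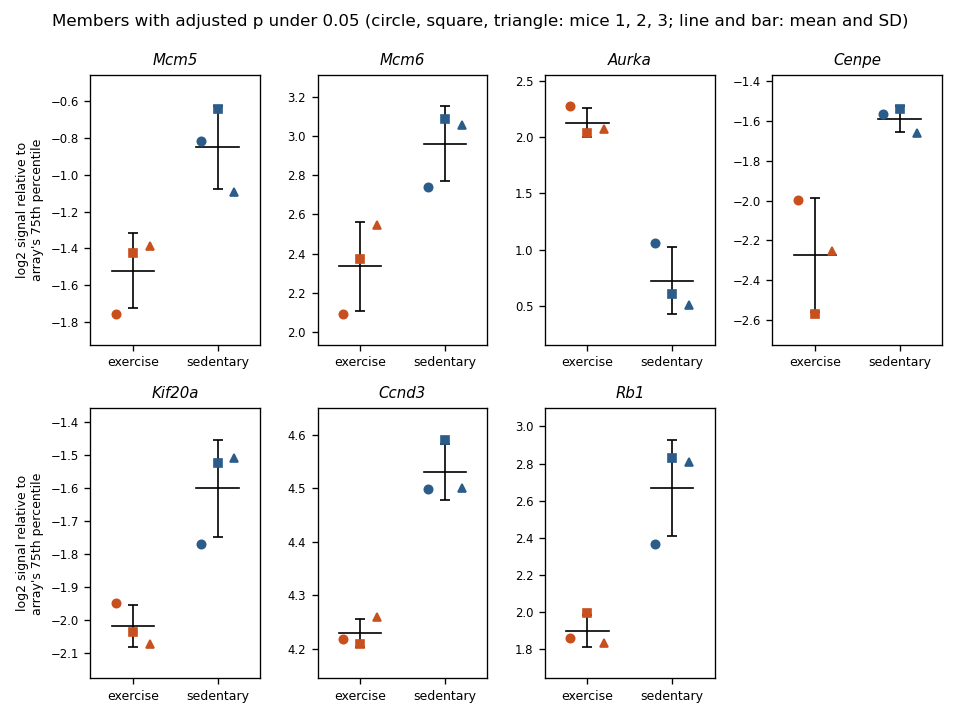
Log2 signal relative to the array's 75th percentile in each mouse for the 7 members with adjusted p under 0.05, with the group mean and SD (n = 3 per group). The groups do not overlap in any panel, and only in the Aurka panel is exercise the higher group.

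Among the replication genes, 2 of 10 fell and the other 8 did not pass the test. Mcm2 to Mcm7 encode the ring-shaped helicase that unwinds DNA at replication forks. Mcm5 was at -1.75, -1.42 and -1.39 in exercise 1 to 3 and at -0.82, -0.64 and -1.09 in sedentary 1 to 3. All exercise values lay below all sedentary ones, a 1.59-fold lower level (log2 fold change -0.67, SE 0.16, adjusted p = 0.039). Mcm6 was at 2.095, 2.37 and 2.54 in exercise and 2.74, 3.09 and 3.06 in sedentary muscle, again without overlap and 1.54-fold lower (-0.62, SE 0.16, adjusted p = 0.043). With the strip of the slide, inferred from the array barcode as described below, as a block, Mcm6 was at -0.40 (adjusted p = 0.32). A second, dim Mcm6 probe, above background on 1 of 3 exercise and all 3 sedentary arrays, had a difference of -0.71. Both have E2F forms in the promoters shown above, but so do Mcm3, Mcm7, Cdk1 and Cdk2, none of which was called. Among the other called members, Cenpe, Aurka and Ccnd3 had no E2F form in their windows. No window was found for Rb1 and Kif20a. A link between these forms and the differences was not tested. Of the 6 subunits 5 had a difference below 0, but Mcm4 (-0.27, adjusted p = 0.075), Mcm7 (-0.27, 0.087) and Mcm3 (-0.09, 0.59) did not pass the test. Mcm2 was the exception with 0.36 (95% confidence interval -0.03 to 0.75, adjusted p = 0.16).

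The sliding clamp Pcna, which holds the polymerase on DNA, was at 3.17, 3.24 and 3.26 in exercise and 3.34, 3.52 and 3.67 in sedentary muscle. Its groups did not overlap, but the difference of -0.28 did not pass the test (SE 0.11, adjusted p = 0.11). The nucleotide-supply genes gave no call: Tyms, thymidylate synthase, differed by -0.09 and Rrm1, the large ribonucleotide reductase subunit, by 0.17. Rrm2, the subunit made during DNA synthesis, differed by 0.01 with an interval of -0.59 to 0.62, and its sedentary mice were spread over 0.37, -0.32 and -0.60. The summed signal of the 10 replication members, on the log2 scale, ran from 4.69 to 4.81 in exercise and from 4.98 to 5.07 in sedentary mice. This sum is weighted to Pcna and Mcm6, the brightest of them, and says little about the others. For the mitotic members, weighted to Aurka, it was 2.94 to 3.17 in exercise and 2.43 to 2.97 in sedentary mice. For the cyclins and kinases it was 5.74 to 5.88 and 5.78 to 5.91. For the inhibitor, RB and E2F members it was 3.91 to 4.14 and 4.15 to 4.43.

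Among the mitotic genes, 1 of the 14 tested rose and 2 fell. Aurka, which drives centrosome maturation and spindle assembly, was at 2.27, 2.04 and 2.07 in exercise and at 1.06, 0.61 and 0.51 in sedentary muscle. The lowest exercise value lay well above the highest sedentary value, and the level was 2.64-fold higher (1.40, SE 0.17, adjusted p = 0.023). Aurka was the 1 member that also passed a log2 fold change of 1, a limit that 1.72% of all genes passed upwards and 1.06% downwards. Within the strip that held both groups its log2 fold change was 1.07 (adjusted p = 0.15 with the strip as a block). Over all alternatives it ran from 0.85 to 1.57. It was measured by 1 probe.

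Genes that act with or beside Aurora A gave no call. Tpx2, its activator on the spindle, differed by -0.07 (95% confidence interval -0.73 to 0.59). Plk1, polo-like kinase, which Aurora A activates, differed by -0.21 (-0.60 to 0.17), and Aurkb, the kinase of the chromosomal passenger complex, by -0.08 (-0.83 to 0.67). Birc5, survivin, a partner of Aurora B, differed by -0.18, but a second, dimmer probe of another transcript gave 0.74, so its direction depends on the probe. The differences between Aurka and these genes were not tested.

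Cenpe, which carries chromosomes to the spindle equator, was at -1.996, -2.57 and -2.25 in exercise and -1.57, -1.54 and -1.66 in sedentary muscle. The sedentary mice were close together and all above the exercise mice, which were 1.60-fold lower (-0.68, SE 0.15, adjusted p = 0.035). Kif20a, needed for the final separation of daughter cells, was at -1.95, -2.04 and -2.07 in exercise and -1.77, -1.52 and -1.51 in sedentary muscle. The groups did not overlap and exercise was 1.34-fold lower (-0.42, SE 0.10, adjusted p = 0.043). With the strip as a block, Kif20a was at -0.25 (adjusted p = 0.30). Kif11, the motor that pushes spindle poles apart, had a difference of nearly the same size as Cenpe (-0.64) but did not pass the test (SE 0.27, adjusted p = 0.14), with sedentary values of -3.90, -3.27 and -2.83.

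The other mitotic members gave no call. Cdc20, an activator of the anaphase-promoting complex, differed by -0.22 without overlap of the groups, and Bub1b, a spindle checkpoint kinase, by -0.45, although it was above background on only 1 exercise array. The centromere histone Cenpa differed by -0.11. Cenpf, a kinetochore protein, differed by -0.13 with its brighter probe and 0.33 with the other. Bub1, a checkpoint kinase, was well above background on 1 sedentary array and no exercise array and was therefore not tested.

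Mki67, the gene of the Ki-67 antigen present in all phases of the active cycle, did not separate the groups. Exercise mice were at -0.57, -0.87 and -0.71 and sedentary mice at 0.22, -0.53 and -1.06. The sedentary group held both the highest and the lowest value, and the difference of -0.26 had an interval of -1.02 to 0.50 (adjusted p = 0.58), which includes 0 and sizeable changes in both directions. Top2a, the topoisomerase that untangles chromosomes, showed a like picture, with -1.95, -2.37 and -1.94 in exercise and -1.26, -2.04 and -2.27 in sedentary muscle (-0.23, SE 0.28, adjusted p = 0.58).

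This spread among the sedentary mice was shared by several members, a pattern noticed after the values were seen. Sedentary 1 exceeded sedentary 3 by 1.28 (log2) for Mki67, 1.34 for Ccnb2, 1.01 for Top2a, 0.97 for Rrm2, 0.96 for E2f1, 0.87 for Birc5 and 0.77 for Ccna2. Sedentary 1 had the highest of the 6 values for 13 of the 39 members, 33.3%, against 11.5% of all genes, and the lowest for 0 members. Sedentary 3 had the lowest for 14 members, 35.9%, against 23.5% of all genes. The SD was larger in the sedentary than in the exercise group for 26 of 39 members, 66.7%, against 53.1% of all genes. Kif11 ran the other way by as much, with sedentary 1 below sedentary 3 (difference -1.07). The 4 erythroid markers tested, which mark blood in the tissue, were also highest in sedentary 1 of the sedentary mice: Hba-a1, a haemoglobin chain, was at 8.08, 7.10 and 6.98, and the list's mean of centred values was 0.52, -0.42 and -0.68 in sedentary 1 to 3. Markers of newly formed fibres varied too, mostly the other way, with a list mean of -0.0016, 0.93 and 0.95. Among the sedentary mice Chrng, the fetal acetylcholine receptor subunit, was lowest in sedentary 1 (0.28, 2.84 and 3.12). Myh8 was highest in sedentary 1 with its brighter probe (9.77, 9.40 and 9.16). Its other probe differed between the groups in the opposite direction, as given below. Actc1 hardly varied (5.31, 5.28 and 5.29). The part of blood or new fibres in the members' spread was not tested. Sedentary 1 also lay in another strip of the slide than sedentary 2 and 3. Its 75th percentile signal was lower, at 310 against 370 and 384. In the contrast of sedentary 1 with sedentary 2 and 3, mouse, strip and signal level therefore cannot be told apart. Without sedentary 1 the members' median was -0.05, and without sedentary 3 it was -0.27.

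**Figure D3:**
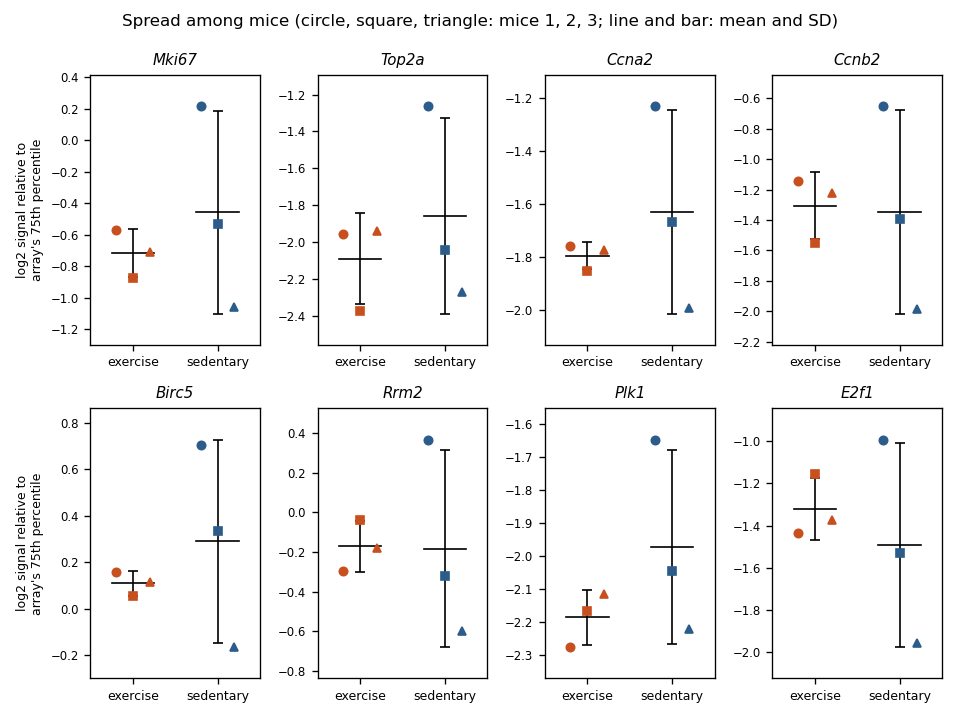
Log2 signal relative to the array's 75th percentile in each mouse for 8 members, chosen for this spread after their values were seen, with the group mean and SD (n = 3 per group). In each panel sedentary 1 (circle) is the highest mouse, and sedentary 3 (triangle) the lowest sedentary mouse.

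Of the cyclins and their kinases, 1 of the 11 tested fell and the other 10 did not pass the test. Ccnd3, the D-type cyclin that is also induced when myoblasts leave the cycle, was at 4.22, 4.21 and 4.26 in exercise and 4.50, 4.59 and 4.50 in sedentary muscle. The mice of each group were close together, and the small difference (1.23-fold lower, -0.30, SE 0.08) passed the test narrowly (adjusted p = 0.047). A second Ccnd3 probe differed by -0.25. Ccnd1, cyclin D1, lay the other way, at 1.93, 2.148 and 1.998 against 1.86, 1.64 and 1.24, without overlap, but its difference of 0.44 did not pass (SE 0.17, adjusted p = 0.12). Ccnd2, cyclin D2, differed by 0.07 with its brighter probe and -0.11 with the other.

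Cdk4, the partner of the D-type cyclins, differed by 0.08, with an interval of -0.13 to 0.29, and its 3 other probes by 0.07 to 0.21. Cdk6, the related kinase, differed by -0.06, and a second probe above background by 0.11. Ccne1, cyclin E1, was below all sedentary values in every exercise mouse, but its difference of -0.27 did not pass (SE 0.09, adjusted p = 0.082), and Cdk2, its partner, differed by -0.22. Ccne2, cyclin E2, was well above background on 1 exercise array only and was not tested.

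The mitotic cyclins gave no call, with differences of -0.17 for Ccna2 (cyclin A2), -0.28 for Ccnb1 (cyclin B1) and 0.04 for Ccnb2 (cyclin B2). The interval of Ccnb2, -0.77 to 0.85, went with sedentary values of -0.65, -1.40 and -1.99. Cdk1, the kinase that starts mitosis, differed by 0.21 with its brighter probe (95% confidence interval -0.09 to 0.51), all exercise mice being above all sedentary mice. A second Cdk1 probe was well above background on all 3 sedentary arrays and on no exercise array, at least 1.23-fold lower in exercise, so the direction for Cdk1 depends on the probe.

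In the inhibitor, RB and E2F branch, 1 of 4 members fell. Rb1, which holds E2F factors inactive in resting cells and during muscle differentiation, was at 1.86, 1.99 and 1.83 in exercise and 2.37, 2.83 and 2.81 in sedentary muscle. Every exercise mouse lay below every sedentary mouse, a 1.71-fold lower level (-0.77, SE 0.15, adjusted p = 0.026). A second Rb1 probe, at -0.51, -0.57 and -0.58 against 0.32, 0.47 and 0.38, differed by -0.95. With the strip as a block, the brighter probe's value was -0.47 (adjusted p = 0.17). The inhibitors Cdkn2c (p18, -0.26) and Cdkn1b (p27, -0.11) did not pass the test. E2f1, a factor that raises replication genes, differed by 0.17 with an interval of -0.42 to 0.77.

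The strip of the slide was inferred from a number in the barcode of each array, which the sample labels do not explain. By this number, exercise 1 to 3 and sedentary 1 lay in 1 strip and sedentary 2 and 3 in the other. With the strip as a block, limma called 0 members and the members' median was -0.27. At an unadjusted p under 0.05, 1 member was higher and 10 lower, beside 4827 of all 25005 genes in either direction. Only 3 of all 25005 genes were called in that fit, and sedentary 1 was the 1 sedentary array beside the exercise arrays. Each of the 7 called members kept its direction in all 21 alternative settings. Their groups did not overlap, so settings that only leave out, block or weight arrays could not reverse it. Unscaled signals were lower in exercise for most genes (median of all genes -0.45), and without scaling 27 of 28 called members were lower, against 6 of 7 with it. Relative to the median of all genes, 30 of 39 members lay below it in either case. That count could not differ, because this scaling shifts all genes of an array alike. With quantile normalization, which does not, it was 28.

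**Figure D4:**
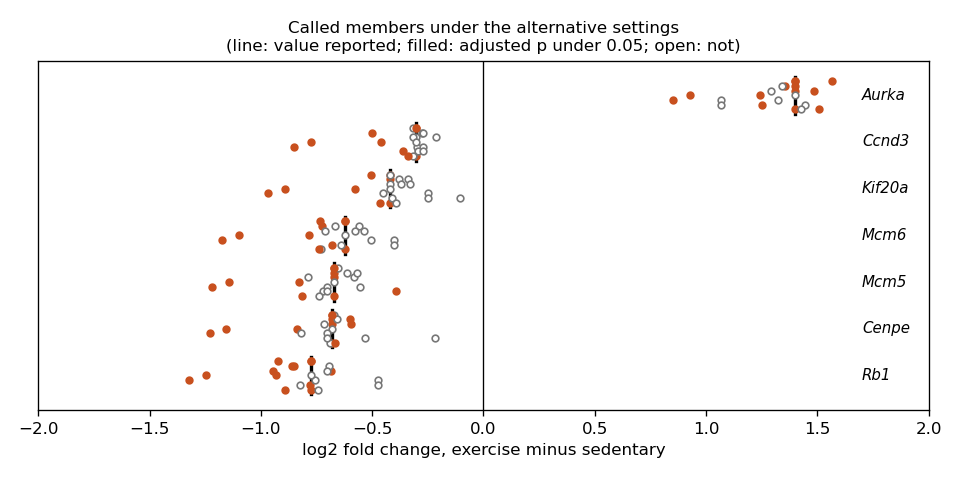
Log2 fold change, exercise minus sedentary, of the 7 called members under 21 alternative settings (points; filled where adjusted p was under 0.05) and as reported (vertical line). All points of Aurka lie right of 0 and all points of the others left of 0, while Aurka and Rb1 are filled in 13 settings each and Kif20a in 8. Settings that only leave out, block or weight arrays could not move a point across 0.

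A wider set of 119 other cell cycle genes, taken from general knowledge of the pathway, was tested in the same fit. Of the 107 that passed the signal filter, 9 rose (8.41%) and 5 fell (4.67%), against 11.5% and 6.12% of all genes. The median log2 fold change of the 107 was -0.05. Of the 32 other replication genes, Cdc7, the kinase that fires replication origins, fell (-0.94, SE 0.14, adjusted p = 0.023), as did Pola1, the catalytic subunit of the priming polymerase (-0.39, SE 0.08, adjusted p = 0.033). Gmnn, geminin, which blocks origin licensing, rose (0.57, SE 0.11, adjusted p = 0.028). Of the 43 other mitotic genes, the condensin subunit Smc2 (-0.74) and the centromere protein Cenpn (-0.54) fell and Pttg1, securin, rose (0.51). Second probes of Pola1, Gmnn, Smc2, Pttg1 and Cdkn2b differed in the same direction as the probe tested.

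Of 32 other inhibitors, checkpoint genes and E2F factors, 7 rose and 1 fell, shares of the list to be read beside the 11.5% and 6.12% of all genes. The largest differences among those called were those of Gadd45g, a stress-induced growth arrest gene (0.97, SE 0.23, adjusted p = 0.039), Tob1, an anti-proliferative gene (0.92, SE 0.16, adjusted p = 0.024), Ccng1, cyclin G1, a p53 target (0.81, SE 0.17, adjusted p = 0.031), and Cdkn2b, the Cdk4 and Cdk6 inhibitor p15 (0.79, SE 0.09, adjusted p = 0.023). The family of Gadd45g was split, with Gadd45a at -1.01 (adjusted p = 0.051) and Gadd45b at 0.90 (adjusted p = 0.11), neither passing and both named after their values were seen. Cdkn2b was at 0.92, 0.79 and 0.90 in exercise and 0.03, 0.02 and 0.18 in sedentary muscle, well apart. The other calls, named after their values were seen, were all E2F factors: E2f4 (0.52), E2f6 (0.52) and E2f7 (0.55), known mainly as repressors, rose, and E2f8 (-0.63), also a repressor, fell.

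Markers of the cell types that these transcripts could come from were read in the same fit. Mature fibre markers were above background on all arrays and 6 of 9 rose, among them Tnnt3 (0.81), Pvalb (1.67) and Acta1 (0.93), with summed log2 signals of 12.3 to 12.6 in exercise and 11.2 to 11.8 in sedentary mice. Of 11 satellite cell markers tested, 1 fell, Pax7, the factor that defines these cells. Pax7 was at -0.87, -0.58 and -0.77 in exercise and -0.10, -0.05 and -0.26 in sedentary muscle (-0.60, SE 0.11, adjusted p = 0.026), while Des (0.15), Itga7 (-0.19) and Spry1 (0.16) did not pass, and Myf5 was not above background on enough arrays to be tested. Of the 11, 8 had a difference below 0, and the median of the 11 was -0.26. At an unadjusted p under 0.05 by limma the list held 5 of its 11 genes, where 9249 of all 25005 genes passed that limit in either direction. All 5 were lower: Pax7, Cdh15 (-0.43), Sdc4 (-0.50), Vcam1 (-0.31) and Chrdl2 (-0.26), the last 4 named after their values were seen. With each gene centred on its mean over the 6 arrays, the list's mean was -0.16 to -0.07 in exercise and 0.08 to 0.14 in sedentary mice. The summed log2 signals, 6.95 to 7.04 and 6.95 to 7.03, are weighted to Des and say little about the other markers. Of 9 markers of newly formed or regenerating fibres, 4 fell (Chrng, Myh3, Mymk and Ncam1) and 1 rose (Myh8, 0.75, whose other probe differed by -0.71), with Actc1 at 0.29 and Myog at -1.18, neither passing. Of the 9, 7 had a difference below 0, all of them with an unadjusted p under 0.05, and the median was -1.18. The list's mean of centred values was -0.89 to -0.26 in exercise and -0.0016 to 0.95 in sedentary mice. The summed signal, 10.2 to 10.3 and 9.32 to 9.85, is weighted to Myh8 and runs the other way.

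No marker of macrophages (0 of 12, Csf1r 0.12, Itgam 0.13, C1qc 0.08), fibroblasts (0 of 12, Dcn 0.07, Col1a2 -0.13, Col3a1 0.15), endothelium (0 of 12, Egfl7 0.22, Flt1 0.03, Kdr 0.13), lymphocytes (0 of 6, Cd3e 0.15, Ptprc -0.36, Nkg7 -0.67) or blood (0 of 4, Hba-a1 0.54, Hbb-bt 0.55, Alas2 0.40) passed the test by limma. At an unadjusted p under 0.05 by limma these lists held 0, 1, 1, 1 and 0 genes, where 9249 of all 25005 genes passed that limit. Of 8 smooth muscle and pericyte markers 1 rose (Acta2, 1.32, whose other 2 probes differed by -0.80 and -0.89) and 1 fell (Myh11, -0.95), with Tagln at -0.52 and Rgs5 at 0.18. This list held 5 genes at an unadjusted p under 0.05 by limma, 1 higher and 4 lower. The lower ones were Myh11, Tagln, Cnn1 (-1.66) and Notch3 (-0.31), the last 2 named after their values were seen. Of 6 adipocyte markers 1 rose (Lep, 0.35), with Cfd at -0.58, Fabp4 at -0.06 and Cidec at -0.997. The summed macrophage signal was 6.44 to 6.65 in exercise and 6.39 to 6.62 in sedentary mice, and the summed fibroblast signal 9.82 to 9.97 and 9.74 to 10.1. The part of any cell type in the members' differences was not tested.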

How the data were processed

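Quadriceps RNA of 6 AR97Q mice was hybridised to 1-colour Agilent mouse arrays, all on 1 slide. The authors extracted the deposited intensity values with Agilent Feature Extraction (12.1.0.3 per the file headers), which subtracts background. A deposited table holds these intensities on a linear scale, multiplied by 1 factor per array (1.33 to 1.88) whose basis is not given in the sources used here, and served as an alternative. Of 62976 spots, 3671 were controls and were dropped, as were outlier-flagged spots, and spots of a probe were averaged. Signals were divided by the array's 75th percentile (251 to 257 in exercise, 310 to 384 in sedentary mice) and log2 transformed. Of 56605 probes, 34566 were named through their RefSeq accession (GRCm38.p6 table). The filter kept a probe if 3 or more arrays had it well above background (54.6% to 59.9% of probes were so on single arrays, and no spot was saturated), and the brightest probe stood for its gene. Groups were compared with limma 3.58.1 (R 4.3.3) without covariates, after tests on simulated data. The number of arrays limits the precision.

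The members and gene lists were chosen with earlier results of these data known. All members are named, up to 4 genes with the largest change of each other cell cycle list among those called, and the 3 brightest of each cell type list, with values. The result of 1 cell type list is not reported here. Alternatives covered scaling, background, filter, probe choice, left-out arrays, strip, replicate block and thresholds.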

Additional observations from a re-analysis of the deposited data

How the results depend on the processing

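The members' counts depended on the scaling and on single arrays. Members called lower numbered 2 with the array median subtracted, 27 without scaling, 26 with scaling on spike-in probes, 3 with the probe of the largest SD, 12 with array weights and 0 where a log2 fold change of 1 was also asked, against 6 as reported. Their median log2 fold change, -0.18 as reported, was -0.094 with the array median subtracted, -0.65 without scaling, -0.73 on spike-in probes, -0.0040 with normexp background correction and -0.34 in the deposited table. The medians of all genes were then 0.11, -0.45, -0.52, 0.09 and -0.13. Relative to these the members' median was -0.10 with normexp and -0.21 in each of the other scalings. It could not differ among those others, which shift all genes of an array alike. With quantile normalization the members' median relative to all genes was -0.11, and 4 members were called lower. Lower calls made up 34.8% of all calls as reported, 24.6% with the array median subtracted, 94.8% without scaling, 97.0% on spike-in probes, 73.2% in the deposited table and 16.5% with no filter on dim probes.

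Leaving out single arrays gave 0 to 1 member higher, 0 to 5 lower and medians of -0.272 to -0.051, and the median moved most without sedentary 1 (-0.051) and without sedentary 3 (-0.272). With the strip as a block, and within the strip that holds both groups, 0 members were higher and 0 lower by limma and the median was -0.27. The labels do not say whether the replicate numbers pair the mice. Correlations of same-numbered mice were 0.02, 0.08 and 0.04, and not every mouse correlated best with its own number. With 3 mice per group these correlations cannot show whether mice were paired. The limma fit with the replicate block called 0 members higher and 0 lower, and 0 of all 25005 genes (lowest adjusted p 0.061). At an unadjusted p under 0.05 it held 1 member higher and 11 lower, beside 8591 of all 25005 genes in either direction. Of 818 single-member values under alternatives, 688 kept their direction, if called, and their side of the threshold. A further 73 lost the call, 56 gained one and 1 reversed: Cdk4, at -0.40 without scaling. Most of the 818 belong to members not called as reported, which had no call to lose. The 73 all come from the 7 members called as reported, with 21 values each. Each of the 7 kept its call in only 8 (Kif20a) to 13 (Aurka and Rb1) of its 21 values. The causes were not tested. Dim members (Bub1, Ccne2, Bub1b, Kif11, Aurkb, Cenpf) lie near background, where small differences cannot be measured.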
